A study of Homo sapiens with 4 samples.

Results

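The 10 genes described here encode the proteins that control the G1 phase of the cell cycle: the D-type cyclins (CCND1, CCND2 and CCND3), their kinases (CDK4 and CDK6), the CDK inhibitors CDKN2A, CDKN2B, CDKN2C and CDKN1B, and the retinoblastoma protein (RB1). They were taken by symbol, all 10 being found, from the 58676 Ensembl genes of the deposited count table, as a set defined by function but put together with earlier results of these data known. Shares over all tested genes stand beside the counts of the set as background, not as a test of it. RNA was sequenced from U2OS, an established human osteosarcoma cell line. Of the 4 libraries, 2 came from cells given a single-domain antibody (sdAb) against MN1, named M11 in the labels, and 2 came from cells given a control sdAb. An sdAb is the variable domain of an antibody used on its own, and MN1 is a transcriptional coregulator. Both groups were grown in the same medium with serum and carry no genetic change that the labels name. Neither the dose, nor the length of exposure, nor the route of delivery is given in the sources used here. Whether replicate libraries stem from separate cultures is not stated, so the p-values reflect only how far these libraries scatter, and that scatter may be technical.

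In the textbook account, growth factor signals raise D-type cyclins, which bind CDK4 or CDK6 and start the phosphorylation of RB1. RB1 that is not phosphorylated holds back the E2F transcription factors, and its phosphorylation releases the genes for S phase. The INK4 proteins, encoded by CDKN2A (p16), CDKN2B (p15), CDKN2C (p18) and CDKN2D (p19), bind CDK4 and CDK6 and keep the cyclins off them, while CDKN1B (p27) binds whole cyclin-CDK complexes. CDKN2A also encodes ARF, an inhibitor of MDM2, from its own first exon in another reading frame. Much of this control acts on proteins, through phosphorylation and degradation, and was not measured by RNA counts.

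The libraries held 16075169 and 15970324 counts with the anti-MN1 sdAb and 15740268 and 16816893 with the control sdAb, and the number of counts limits the precision of each level. Pearson's r of log2 CPM over genes, within a group, was 0.990 (anti-MN1) and 0.992 (control), against 0.973 to 0.974 between groups. Levels are in CPM, the read count relative to library size, after TMM scaling, which sets libraries to a common level by the bulk of their genes. Mitochondrial genes took 3.40% and 3.49% of counts in the anti-MN1 libraries and 4.45% and 4.31% in the control libraries. Mesenchymal and bone markers were mixed: VIM was at 338 and 352 CPM (group means, anti-MN1 and control) and RUNX2 at 19.2 and 34.4 CPM, COL1A1 at 162 and 493 CPM and SPARC at 114 and 257 CPM, whereas SP7 had no count in any library and COL1A2 and BGLAP were under 1 CPM in each. The 9 markers of this list summed to 645 and 653 CPM in the anti-MN1 libraries and 1163 and 1146 CPM in the control libraries, a difference that lay mostly in COL1A1 (log2 fold change -1.60) and SPARC (-1.17). The 6 fibroblast markers, which mesenchymal cells share in part, summed to 64.9 and 66.1 CPM in the anti-MN1 libraries and 114 and 116 CPM in the control libraries, with DCN under 1 CPM. The 8 blood markers were each under 1 CPM in every library, with CD3E and HBB at 0. The 6 endothelial markers summed to 6.33 and 6.65 CPM in the anti-MN1 libraries and 9.80 and 8.68 CPM in the control libraries, with CDH5 and KDR under 1 CPM. The 6 epithelial markers summed to 35.6 and 36.0 CPM in the anti-MN1 libraries and 23.0 and 28.4 CPM in the control libraries, mostly from CLDN4, with ESRP1 under 1 CPM. CLDN4 rose by 0.68 (log2), while CDH1 fell by 1.62 at low counts. The median log2 fold change of the 5 tested epithelial markers was -0.59, so the sum reflects CLDN4 and not the list. The part of these shifts in the results was not tested. In bulk libraries, fewer cells of a type and less RNA per cell cannot be told apart.

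RefSeq promoter windows, from 250 bases before to 50 bases after a start, were available for 8 of the 10 genes, as 14 windows on GRCh38.p14. Those shown belong to the genes on which the results turn: CCND3, the gene that changed most, CDKN2A and CDKN2B, which lie side by side and moved in opposite directions, and CDK4, which did not pass the test. Capitals mark GC boxes (GGGCGG or CCGCCC) and E-boxes (CACGTG), the sequence bound by MYC and MAX among others. For CDKN2A, the distal start gives the ARF transcript and the proximal start the p16 transcript.
CCND3 distal start, chr6:42048639-42048938, minus strand: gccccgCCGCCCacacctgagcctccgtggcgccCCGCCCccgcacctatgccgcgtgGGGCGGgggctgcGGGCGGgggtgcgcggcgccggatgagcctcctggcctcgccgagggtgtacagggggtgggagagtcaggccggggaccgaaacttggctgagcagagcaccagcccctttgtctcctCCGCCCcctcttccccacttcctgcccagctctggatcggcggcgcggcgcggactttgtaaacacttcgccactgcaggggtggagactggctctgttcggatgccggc
CCND3 proximal start, chr6:41941759-41942058, minus strand: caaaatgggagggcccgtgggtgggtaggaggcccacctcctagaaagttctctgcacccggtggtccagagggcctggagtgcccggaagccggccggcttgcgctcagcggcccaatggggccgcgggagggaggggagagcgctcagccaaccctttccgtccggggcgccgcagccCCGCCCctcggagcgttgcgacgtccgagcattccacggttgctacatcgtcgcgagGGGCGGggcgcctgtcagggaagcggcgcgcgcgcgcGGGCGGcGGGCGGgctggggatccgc
CDK4, chr12:57752261-57752560, minus strand: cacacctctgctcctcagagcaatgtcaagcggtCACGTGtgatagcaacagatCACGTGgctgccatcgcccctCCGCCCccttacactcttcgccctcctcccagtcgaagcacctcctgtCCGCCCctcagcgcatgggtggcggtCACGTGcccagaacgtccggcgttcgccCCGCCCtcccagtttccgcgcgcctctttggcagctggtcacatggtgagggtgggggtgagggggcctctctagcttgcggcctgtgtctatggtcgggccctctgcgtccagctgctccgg
CDKN2A distal start, chr9:21995275-21995574, minus strand: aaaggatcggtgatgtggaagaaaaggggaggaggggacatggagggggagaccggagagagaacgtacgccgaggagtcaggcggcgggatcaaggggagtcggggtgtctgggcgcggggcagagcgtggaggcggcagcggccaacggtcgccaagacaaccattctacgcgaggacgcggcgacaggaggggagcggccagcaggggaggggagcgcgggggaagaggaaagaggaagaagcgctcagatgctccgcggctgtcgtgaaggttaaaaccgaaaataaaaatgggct
CDKN2A proximal start, chr9:21974808-21975107, minus strand: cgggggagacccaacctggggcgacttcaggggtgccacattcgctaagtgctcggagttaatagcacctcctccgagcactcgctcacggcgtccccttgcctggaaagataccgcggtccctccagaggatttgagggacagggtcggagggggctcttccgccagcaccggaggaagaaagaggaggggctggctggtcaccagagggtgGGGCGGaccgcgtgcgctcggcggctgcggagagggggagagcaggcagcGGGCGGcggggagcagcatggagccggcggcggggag
CDKN2B, chr9:22009256-22009555, minus strand: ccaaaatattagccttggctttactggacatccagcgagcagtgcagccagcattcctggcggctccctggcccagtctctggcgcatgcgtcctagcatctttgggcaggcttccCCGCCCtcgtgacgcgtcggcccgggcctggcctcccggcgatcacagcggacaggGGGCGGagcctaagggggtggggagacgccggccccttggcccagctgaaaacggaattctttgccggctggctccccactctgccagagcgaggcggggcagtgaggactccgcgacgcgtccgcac

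The 2 CCND3 windows held 5 and 4 GC boxes, a motif found in 44.9% of all 34943 distinct windows of the same length, and a further CCND3 start downstream held none. The CDK4 window held 3 E-boxes, 216, 196 and 101 bases before the start, and 3 GC boxes. An E-box was found in 7.23% of all windows and 3 or more in 0.0944%. Also searched on both strands were an E2F site (TTTNNCGC, in 6.85% of windows), an AP-1 site (TGANTCA, 7.72%), a CRE core (TGACGT, 7.97%), a STAT site (GAS, TTCNNNGAA, 7.66%) and an interferon response core (ISRE, read as GAAA, 2 bases of any kind and GAAA, 3.57%). None of these 5 was found in the windows shown. Elsewhere a CRE core and an E-box each occurred in 2 of the 3 CDKN2C windows, and a CRE core in 1 and an E-box in the other of the 2 CDK6 windows. The RB1 window held 1 AP-1 site and 1 GAS site. It lies at chr13:48476200-48476499, inside the gene, and not at the outermost annotated start of RB1 at 48303726. These matches describe the letters of the windows and not bound sites, and none of the motifs overlapped another of a different name in the windows shown.

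The question of the comparison is which of these transcripts change with the sdAb against MN1, set against the control sdAb. All 10 genes passed the filter on low counts. In the quasi-likelihood test of edgeR (threshold 0.05 on p-values with Benjamini-Hochberg adjustment across the 17524 genes tested), 5 of the 10 rose (CCND3, CDKN2A, CDK6, CCND1 and CDKN2C), 2 fell (CCND2 and CDKN2B) and 3 did not pass (RB1, CDK4 and CDKN1B). Over all tested genes 23.7% were called higher, 21.6% lower and 45.3% in either direction. Of these calls 52.3% were higher, against 38.0% with upper-quartile factors, which moved the median of all genes to -0.09 (log2). All 10 genes had means above 10 CPM, and among the 10143 tested genes above that level 35.9% were called higher, 20.9% lower and 56.9% in either direction. The median log2 fold change of the 10 genes was 0.15, against -0.00378 over all tested genes, whose median level was 16.6 CPM. No median over genes of like level was computed, so this difference is not a trait of the set. Both cyclins and inhibitors were among the genes that rose and among those that fell. CCND3 and CDKN2A rose at least 1.5-fold, as did 5.32% of tested genes, and none of the 10 fell that far, as 11.8% did. CCND3 alone rose at least 2-fold, as did 1.91% of tested genes, and none fell 2-fold, as 6.84% did. Tested against a change of 1.5-fold (edgeR's glmTreat), CCND3 alone passed, where 2.04% of tested genes were called higher and 4.65% lower. The groups did not overlap for 8 of the 10 genes, against 70.7% of tested genes.

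**Figure D1:**
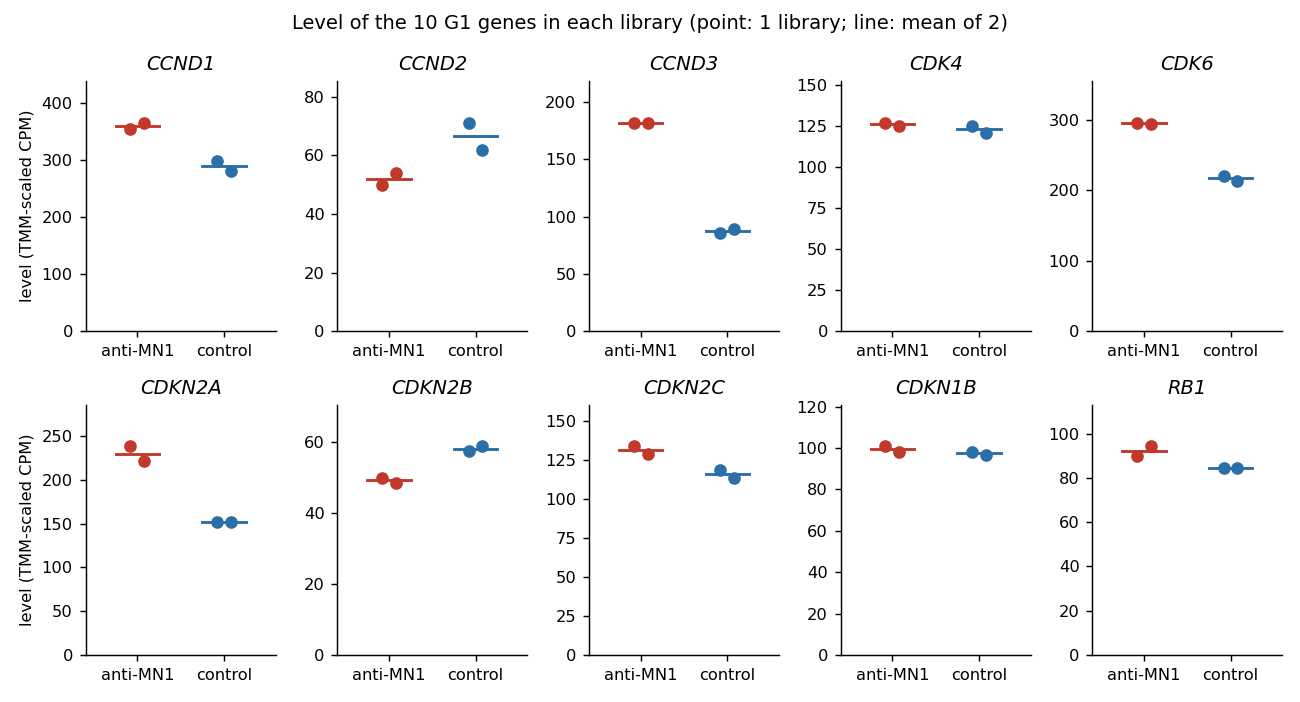
Level of each of the 10 genes in the 4 libraries (y axis, TMM-scaled CPM from 0; x axis, anti-MN1 sdAb left and control sdAb right; points are libraries and lines the mean of 2). The anti-MN1 libraries lie above both control libraries for CCND1, CCND3, CDK6, CDKN2A, CDKN2C and RB1, below both for CCND2 and CDKN2B, and overlap them for CDK4 and CDKN1B.

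CCND3, which encodes cyclin D3 (ENSG00000112576, chromosome 6, 41934933 to 42050357, minus strand, GRCh38), showed the largest change of the set. It had 182 and 181 CPM in the anti-MN1 libraries, against 85.6 and 89.0 CPM in the control libraries, from counts of 2842 and 2806 against 1380 and 1538. The groups were far apart and each group's libraries lay within a few CPM of each other. CCND3 rose 2.08-fold, by 1.05 ± 0.05 (SE) on the log2 scale (edgeR adjusted p = 2.35e-55), and 9.06% of tested genes changed by more in either direction.

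CCND1, the gene of cyclin D1 (ENSG00000110092, chromosome 11, 69641087 to 69654474, plus strand), had 356 and 366 CPM in the anti-MN1 libraries and 298.6 and 281.7 CPM in the control libraries. Both anti-MN1 libraries were above both control libraries, and CCND1 rose 1.24-fold, by 0.32 ± 0.04 (SE) on the log2 scale (edgeR adjusted p = 8.83e-15). Exons of LTO1, on the other strand, overlap 10.3% of the exonic bases of CCND1. LTO1 was at 34.3 CPM (anti-MN1) and 28.5 CPM (control, group means) and rose by 0.27 (log2, edgeR adjusted p = 0.00805). With no strand setting given for the counting, reads of this overlap may be missing from CCND1 or come from LTO1. CCND2, the gene of cyclin D2 (ENSG00000118971, chromosome 12, 4273772 to 4305350, plus strand), was the only one of the 3 D-type cyclin genes that fell. It had 50.02 and 54.00 CPM in the anti-MN1 libraries and 71.1 and 61.9 CPM in the control libraries, where the 2 libraries lay farther apart than in the other group. Its log2 fold change was -0.35 ± 0.07 (SE; edgeR adjusted p = 2.42e-06). Of its sequence windows of 50 bases, 14.6% also occur in other genes, chiefly in ENSG00000285901, which overlaps it on the same strand and had at most 1 count in a library.

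Levels of different genes were set side by side per exonic kilobase. The summed level of the 3 D-type cyclin genes was 112 and 115 CPM per kb in the anti-MN1 libraries and 86.5 and 82.3 CPM per kb in the control libraries. CCND3 made up 28.0% and 27.3% of that sum in the anti-MN1 libraries, against 17.1% and 18.6% in the control libraries. CCND1 stayed the largest part, with 65.8% and 66.2% in the anti-MN1 libraries and 71.5% and 70.9% in the control libraries. CCND2 held 6.24% and 6.58% in the anti-MN1 libraries and 11.5% and 10.5% in the control libraries. The level of CCND3 over that of CCND1, a ratio that no scaling of libraries can change, was 0.425 and 0.412 in the anti-MN1 libraries and 0.239 and 0.263 in the control libraries. An exact permutation test of 2 libraries against 2 cannot go below p = 0.333, so these shares and ratios are given without a test. They depend on the gene length used: with the longest transcript in place of all exonic bases, the CCND3 share was 45.7% and 44.8% in the anti-MN1 libraries and 30.8% and 33.2% in the control libraries. By either length the groups did not overlap. A length is the same in all 4 libraries, and CCND3 rose relative to both CCND1 and CCND2. The direction of its share was therefore bound to be the same by either length and is no further support.

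**Figure D2:**
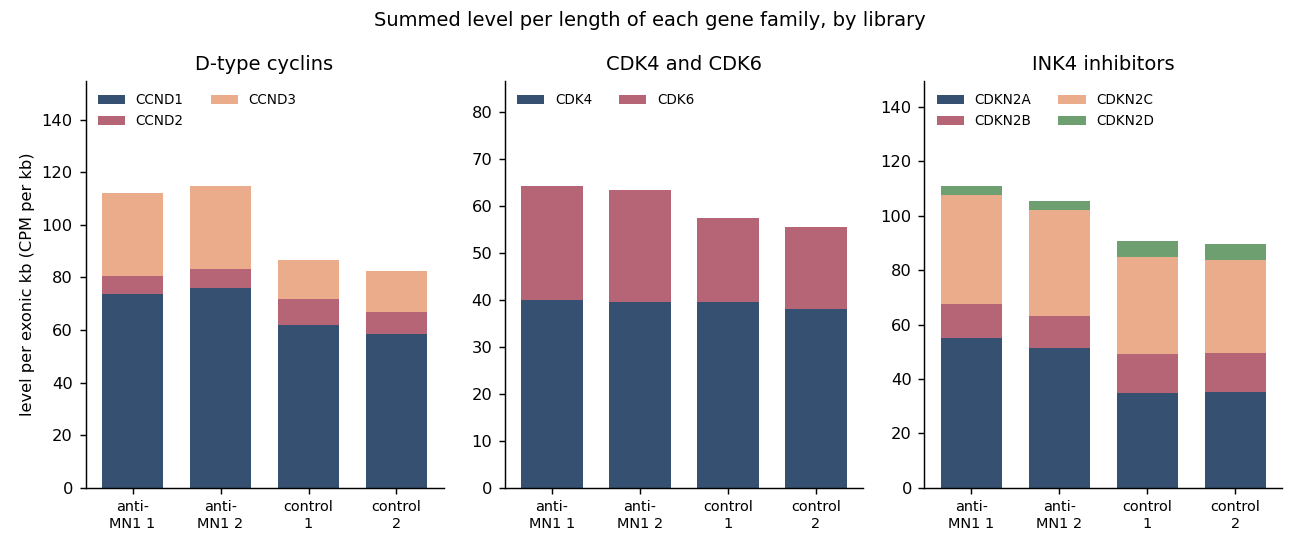
Summed level per exonic kb (y axis, CPM per kb from 0) of the D-type cyclins, of CDK4 and CDK6, and of the INK4 inhibitors in each library (x axis, anti-MN1 libraries left), stacked by gene. The CCND3, CDK6 and CDKN2A segments are larger in both anti-MN1 libraries than in both control libraries, and the CDK4 segment is about the same in all 4. The CDKN2A segment may hold ARF as well as p16 transcripts.

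The kinase genes differed from each other. CDK6 (ENSG00000105810, chromosome 7, 92604921 to 92836594, minus strand) had 296 and 294 CPM in the anti-MN1 libraries and 221 and 214 CPM in the control libraries. Libraries of a group were close and the groups did not overlap, and CDK6 rose 1.36-fold, by 0.44 ± 0.04 (SE) on the log2 scale (edgeR adjusted p = 3.53e-23). CDK4 (ENSG00000135446, chromosome 12, 57747727 to 57756013, minus strand) had 127 and 125 CPM in the anti-MN1 libraries and 125 and 121 CPM in the control libraries, so the groups overlapped. Its log2 fold change was 0.04 with a 95% interval from -0.06 to 0.13 (edgeR adjusted p = 0.58), and its sign turned under scaling by upper quartiles (-0.05) and by total counts (-0.04), where it did not pass either. CDK6 made up 37.6% and 37.8% of the summed per-length level of the pair in the anti-MN1 libraries and 31.3% and 31.4% in the control libraries. Per exonic kb, the ratio of CDK6 to CDK4 was 0.603 and 0.608 in the anti-MN1 libraries and 0.456 and 0.458 in the control libraries. Exons of TSPAN31, on the other strand, overlap 43.2% of the exonic bases of CDK4. The strand setting of the counting is not given, so reads of the overlap may be missing from CDK4 or come from TSPAN31. TSPAN31 itself had 12.6 and 10.2 CPM in the anti-MN1 libraries and 13.9 and 15.9 CPM in the control libraries (log2 fold change -0.39, edgeR adjusted p = 0.011).

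The INK4 inhibitor genes CDKN2A and CDKN2B lie next to each other, with outermost annotated starts 14.1 kb apart, and moved in opposite directions. CDKN2A (ENSG00000147889, chromosome 9, 21967753 to 21995301, minus strand) had 238 and 222 CPM in the anti-MN1 libraries, against 151 and 152 CPM in the control libraries. The control libraries were nearly equal and both lay well below the anti-MN1 libraries. CDKN2A rose 1.52-fold, by 0.60 ± 0.04 (SE) on the log2 scale (edgeR adjusted p = 1.11e-31). The table counts the locus as 1 gene, so transcripts from the ARF start and the p16 start, 20467 bases apart, could not be told apart. CDKN2B (ENSG00000147883, chromosome 9, 22002903 to 22009363, minus strand) had 50.1 and 48.6 CPM in the anti-MN1 libraries and 57.5 and 58.9 CPM in the control libraries. Both anti-MN1 libraries were lower, and CDKN2B fell by 0.24 ± 0.07 (SE) on the log2 scale (edgeR adjusted p = 0.00242). Per exonic kb, the level of CDKN2A was 4.46 and 4.28 times that of CDKN2B in the anti-MN1 libraries and 2.47 and 2.41 times in the control libraries. The size of this ratio depends on the length used. By the longest transcript, CDKN2A held 74.9% and 74.1% of the summed INK4 gene level in the anti-MN1 libraries, and CDKN2B 5.17% and 5.33%. In the control libraries CDKN2A held 65.6% and 66.2%, and CDKN2B 8.18% and 8.44%. The 2 genes share 31 windows of 50 bases, 2.51% of the longest CDKN2A transcript and 0.803% of the longest CDKN2B transcript.

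CDKN2C, the gene of the INK4 protein p18 (ENSG00000123080, chromosome 1, 50960745 to 50974633, plus strand), had 134 and 129 CPM in the anti-MN1 libraries and 119 and 114 CPM in the control libraries. The groups did not overlap but were close, and CDKN2C rose 1.13-fold, by 0.18 ± 0.05 (SE) on the log2 scale (edgeR adjusted p = 0.000784). This call was lost under upper-quartile scaling (log2 fold change 0.09, adjusted p = 0.102) and with total counts only (0.10, adjusted p = 0.0742). CDKN1B, the gene of p27 (ENSG00000111276, chromosome 12, 12715058 to 12722371, plus strand), had 100.8 and 98.18 CPM in the anti-MN1 libraries and 98.22 and 96.63 CPM in the control libraries. The lower anti-MN1 library and the higher control library were nearly equal, so the groups overlapped, and the log2 fold change of 0.03 had a 95% interval from -0.07 to 0.13 (edgeR adjusted p = 0.668). Its sign turned with upper-quartile factors (-0.05), total counts (-0.05) and a minimum count of 50 (-0.0034), and it passed under none of these.

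RB1 (ENSG00000139687, chromosome 13, 48303726 to 48599436, plus strand), the target of the CDK4 and CDK6 kinases, had 90.1 and 94.2 CPM in the anti-MN1 libraries and 84.3 and 84.6 CPM in the control libraries. Both anti-MN1 libraries were above both control libraries, a separation that most tested genes also showed. The log2 fold change of 0.13 had a 95% interval from 0.02 to 0.23, and RB1 lay just outside the threshold of 0.05 (edgeR adjusted p = 0.0507). Without anti-MN1 replicate 1 it passed (log2 fold change 0.16, adjusted p = 0.0431).

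**Figure D3:**
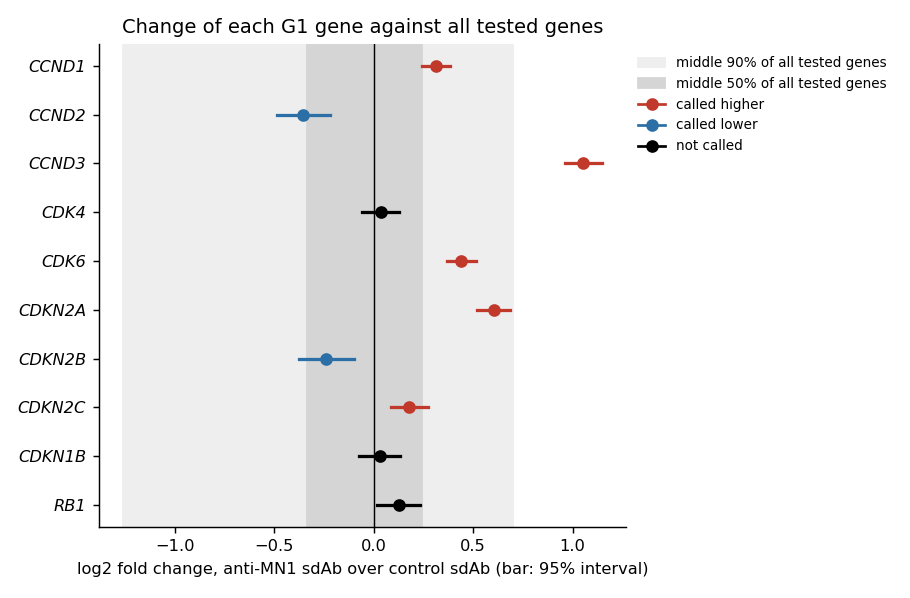
Log2 fold change of each gene, anti-MN1 sdAb over control sdAb (x axis), with its 95% interval (bar), against the middle 50% and 90% of all tested genes (shaded). CCND3 at 1.05 lies outside the middle 90%, the other 9 lie inside it, and CDKN2A, CDK6, CCND1 and CCND2 lie outside the middle 50%.

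Per exonic kb, the order of the 10 genes ran in the anti-MN1 libraries from CCND1 (74.7 ± 1.52 CPM per kb, SD, n = 2) through CDKN2A (53.1 ± 2.67), CDK4 (39.8 ± 0.396), CDKN2C (39.6 ± 1.01), CDKN1B (35.4 ± 0.658), CCND3 (31.3 ± 0.0634), CDK6 (24.1 ± 0.110), RB1 (14.3 ± 0.452) and CDKN2B (12.2 ± 0.251) to CCND2 (7.27 ± 0.394). In the control libraries it ran from CCND1 (60.1 ± 2.47 CPM per kb, SD, n = 2) through CDK4 (38.8 ± 0.950), CDKN2C (35.0 ± 1.05), CDKN2A (35.0 ± 0.0403), CDKN1B (34.7 ± 0.399), CDK6 (17.7 ± 0.398), CCND3 (15.1 ± 0.417), CDKN2B (14.3 ± 0.238) and RB1 (13.1 ± 0.0294) to CCND2 (9.29 ± 0.910). The order is by exonic bases and depends on that choice of length. In the anti-MN1 libraries CDK4 and CDKN2C did not differ beyond their spread, and in the control libraries CDKN2C, CDKN2A and CDKN1B did not. By exonic bases, CDKN2A stood above CDK4, and CCND3 above CDK6, in the anti-MN1 libraries, and each below it in the control libraries. With the longest transcript as length both stood above in all 4 libraries, so these changes of order rest on the length chosen.

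The genes around the members did not share one direction. Of the 13 other tested genes within 500 kb of CCND3, 2 rose and 2 fell, and their median log2 fold change was -0.08. The 2 that rose were BYSL (0.38) and MRPS10 (0.33), and the 2 that fell were USP49 (-0.32) and FRS3 (-0.52). TAF8, which starts 0.156 kb from the outermost annotated start of CCND3, was at -0.05 (edgeR adjusted p = 0.654). Both CCND3 windows shown lie farther inside the gene, and which start the cells use was not measured. Of the 4 listed neighbours of CDKN2A and CDKN2B, MTAP, a methionine salvage enzyme gene, rose by 0.18 and DMRTA1 fell by 0.56 on the log2 scale (edgeR adjusted p = 0.0295 and 0.0172), and neither passed with DESeq2. ELAVL2 (-0.40, adjusted p = 0.0637) and the antisense RNA CDKN2B-AS1 (-0.25, adjusted p = 0.402) did not pass in edgeR. CDKN2B-AS1 overlaps 7.88% of the exonic bases of CDKN2A on the other strand, and had 3.90 and 3.68 CPM in the anti-MN1 libraries and 4.28 and 4.75 CPM in the control libraries. Around CDK4, 16 of 27 tested genes within 500 kb fell and 3 rose, with a median log2 fold change of -0.32, beside 0.04 for CDK4 itself. Over all tested genes 21.6% were called lower and 23.7% higher.

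**Figure D4:**
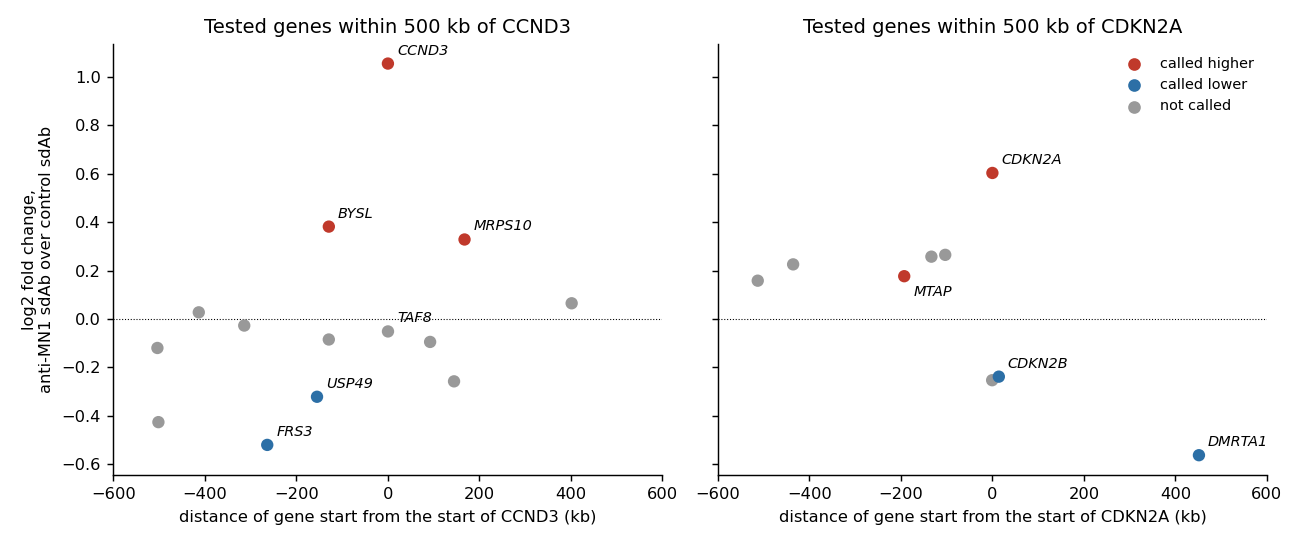
Log2 fold change (y axis, anti-MN1 sdAb over control sdAb) of the tested genes whose bodies lie within 500 kb of CCND3 (left) and of CDKN2A (right), by the distance of their start from the start of that gene (x axis, kb). The start of a gene is its outermost annotated start. CCND3 at 1.05 and CDKN2A at 0.60 lie above every neighbour shown, and CDKN2B at -0.24 lies below 0 at a distance of 14.1 kb.

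Genes that act beside the 10 members were taken from 8 lists defined by function and drawn up with earlier results known, in which CCNE1, CCNE2, E2F1, ETS1 and ETS2 each stand in 2 lists. For comparison with the counts below, 23.7% of all tested genes were called higher and 21.6% lower, and 35.9% and 20.9% of those at 10 CPM or more. Genes outside the 3 with the smallest p of a list were named after their values were seen. Of 14 tested genes among the other G1/S cyclins, CDKs and inhibitors, 5 rose and 4 fell (median log2 fold change 0.06). The genes that fell included both other inhibitors that passed: CDKN1A, the gene of p21, at 121 ± 4.93 CPM in the anti-MN1 libraries and 146 ± 1.69 CPM in the control libraries (SD, n = 2 each), and CDKN2D, the INK4 gene of p19, at 4.79 ± 0.352 and 8.69 ± 0.171 CPM. They fell by 0.27 and 0.86 on the log2 scale. CCNE1, the gene of cyclin E1, fell by 0.28 and CCNA1, a cyclin of the germ line, by 1.38 at low counts. CDK7 and CCNH, subunits of the CDK-activating kinase, rose by 0.29 and 0.34, while its subunit gene MNAT1 did not pass (0.01, edgeR adjusted p = 0.921). The phosphatase gene CDC25A rose by 0.24, and CCNA2 and CDK1 rose by 0.10 each (edgeR adjusted p = 0.025 and 0.0369). With upper-quartile factors, and also in DESeq2, 3 genes of this list were called higher in place of 5. With CDKN2D included, the summed per-length level of the INK4 genes was 111 and 106 CPM per kb in the anti-MN1 libraries and 90.7 and 89.5 CPM per kb in the control libraries. CDKN2A took 49.7% and 48.6% of it in the anti-MN1 libraries and 38.5% and 39.1% in the control libraries. The CDKN2A counts may hold ARF transcripts, which do not encode an INK4 protein. The sum and the share are therefore levels of genes and not of INK4 mRNA alone.

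Downstream of RB1, the lists went both ways. Of 12 pocket protein, E2F and DP genes, 2 rose and 3 fell (median -0.03). TFDP1, an E2F partner, rose by 0.14 and E2F3 by 0.18, while the partner TFDP2 fell by 0.34, the pocket protein gene RBL2 by 0.21 and E2F8 by 0.28. E2F1 was at 54.5 CPM (anti-MN1) and 59.2 CPM (control, group means) and did not pass (-0.12, edgeR adjusted p = 0.145). Of 20 E2F target genes of S phase entry, 6 rose and 5 fell (median -0.03). Thymidine kinase TK1 fell by 0.42, and the ribonucleotide reductase genes RRM2 and RRM1 rose by 0.27 and 0.22, with 29.6% of the RRM2 windows found in other genes. CCNE1, PCNA and MCM5 also fell, by 0.28, 0.17 and 0.14. With upper-quartile factors 11 of the 20 targets were called lower, and 0 pocket protein, E2F or DP genes higher and 6 lower. Of 6 tested genes of MuvB, B-MYB and FOXM1, 0 passed in edgeR or in DESeq2, and 1 had an unadjusted p under 0.05 in edgeR, LIN9 (0.18, adjusted p = 0.0572), with MYBL2 at 0.06 and LIN54 at -0.06.

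Of 12 genes for the turnover of G1 cyclins and inhibitors, 6 rose and 2 fell (median 0.15). CUL1, SKP1 and CKS1B encode parts of the SCF-SKP2 ubiquitin ligase, which marks p27 for degradation. CUL1 stood at 80.9 ± 1.03 CPM in the anti-MN1 libraries and 56.7 ± 1.76 CPM in the control libraries (SD, n = 2 each), CKS1B at 163 ± 6.69 and 133 ± 0.867 CPM, and SKP1 at 103 ± 0.674 and 84.2 ± 5.83 CPM. They rose by 0.51, 0.30 and 0.29 on the log2 scale, with 14.1% of the CKS1B windows also found in pseudogenes, while SKP2 itself was at 0.03 (edgeR adjusted p = 0.645). FBXO31 and FBXO4, F-box genes linked to cyclin D1 turnover, rose by 0.38 and 0.29. AMBRA1, the adaptor of a ligase for D-type cyclins, was at -0.05 (edgeR adjusted p = 0.664), and GSK3B, a kinase of cyclin D1, at -0.10 (edgeR adjusted p = 0.055), and neither passed. FZR1, an activator of the anaphase-promoting complex, fell by 0.28, and the deubiquitinase gene USP2 fell by 1.38 to 0.580 CPM (anti-MN1), against 1.52 CPM (control).

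Of 16 transcription factor genes known to act on D-type cyclin genes, 9 rose and 2 fell (median 0.23). The list was not split into activators and repressors, so these counts give no direction of effect on the cyclin genes. MYC stood at 430 ± 3.59 CPM in the anti-MN1 libraries and 285 ± 5.44 CPM in the control libraries (SD, n = 2 each), the AP-1 subunit gene FOSL1 at 70.9 ± 2.19 and 36.1 ± 2.64 CPM, and KLF4 at 47.7 ± 1.65 and 25.9 ± 1.603 CPM. They rose by 0.59, 0.97 and 0.88 on the log2 scale, and JUN, another AP-1 subunit gene, by 0.32. TCF7L2 fell by 0.36 and ATF2 by 0.17 on the log2 scale. FOS did not pass (0.23, edgeR adjusted p = 0.482), with 154 and 147 CPM in the anti-MN1 libraries and 109 and 147 CPM in the control libraries. Of 15 tested regulators of the CDKN2A and CDKN2B locus, 5 rose and 4 fell (median 0.08). This list was not split into activators and repressors either, so its counts give no direction of effect on the locus. ETS1 rose by 0.45, and ETS2 (0.36), TBX3 (0.33), ID1 (0.17) and the Polycomb methyltransferase gene EZH2 (0.29) rose too. The 4 that fell were SMAD3 (-0.35), a TGF-beta signal transducer, and BMI1 (-0.47), CBX7 (-0.87) and RING1 (-0.31). These last are Polycomb genes, as is EZH2, so the Polycomb genes of the list went both ways. BMI1 had 52.7 and 55.4 CPM in the anti-MN1 libraries and 72.6 and 76.9 CPM in the control libraries, with 28.2% of its windows shared with the read-through gene COMMD3-BMI1. CBX7 had 11.5 and 10.7 CPM in the anti-MN1 libraries and 20.1 and 20.3 CPM in the control libraries. The other Polycomb-linked genes of the list (SUZ12, EED, RNF2, CBX8 and KDM2B) did not pass, with log2 fold changes from -0.11 to 0.15.

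**Figure D5:**
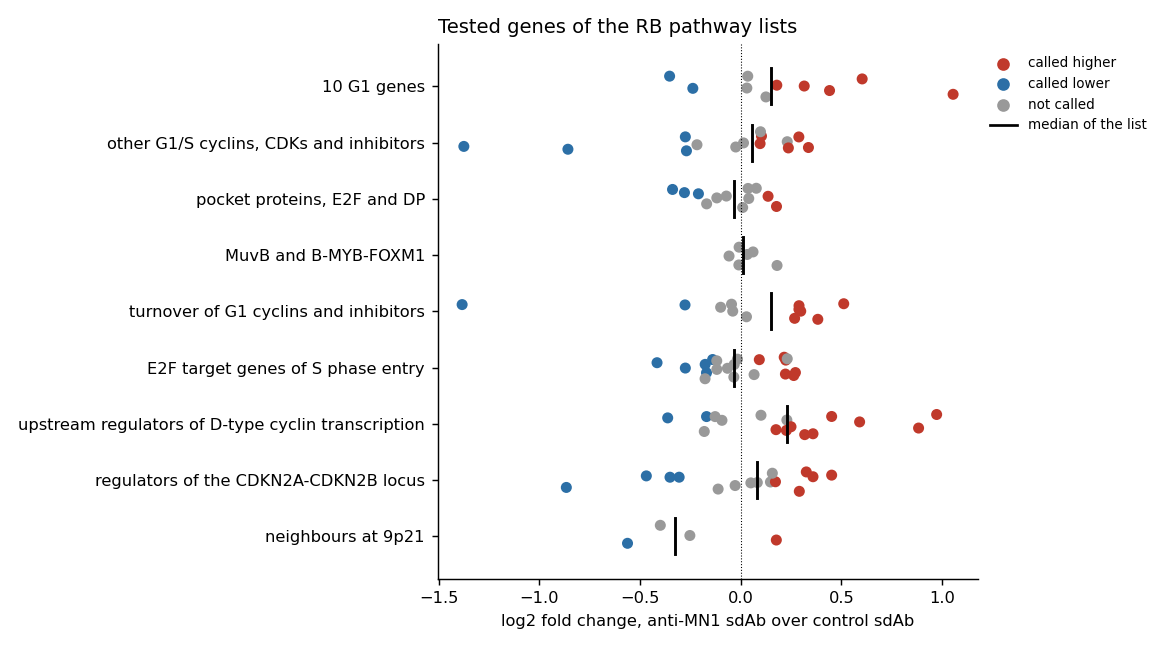
Log2 fold change (x axis, anti-MN1 sdAb over control sdAb) of every tested gene of the 10-gene set and of the 8 lists (rows), coloured by call, with each list's median as a vertical line. The medians run from -0.33 for the 4 neighbours at 9p21 to 0.23 for the regulators of D-type cyclin genes, and each list except that of MuvB, B-MYB and FOXM1 holds genes called in both directions.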

How the data were processed

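RNA counts from 4 U2OS libraries were used. The authors deposited raw read counts per Ensembl gene, not normalized, judged by the whole-number values. Bowtie2, HTSeq and the build hg38 (GRCh38) are named per the submitters' processing notes, with no version or role, while neither the annotation release nor the strand setting is given. The groups were taken from the labels, and each column was tied to a library by the initial of its group name and by its replicate number. Symbols were available for 58207 of 58676 identifiers, and coordinates came from GENCODE release 29, which holds all of them.

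Counts were filtered with filterByExpr (minimum count 10, 17524 genes kept, with 99.8% of counts), scaled by TMM and tested with edgeR 4.0.16 in R 4.3.3 (quasi-likelihood, robust shrinkage, 2-sided, no covariate, threshold 0.05 after Benjamini-Hochberg adjustment over all tested genes). The fit was also run on counts simulated from its own model, which does not test whether the p-values hold for these libraries. The prior degrees of freedom had a median of 209, so p-values rest mostly on the spread shared by all genes. Robust shrinkage follows earlier work on these data. SE is the size of the log2 change over the root of the F statistic. Intervals on counts and floors (3 counts, 0.174 to 0.194 CPM) cover counting error only. DESeq2 1.42.0 and limma 3.58.1 (voom) were alternatives. The 10 genes were named in full. Of each list the 3 genes with the smallest p were named, and all genes of a list of 5 or fewer. Some list genes are not reported here. The members, lists and motifs were chosen with earlier results of these data known.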

Additional observations from a re-analysis of the deposited data

How the results depend on the processing

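Over 14 alternatives for each of the 10 genes, 131 of 140 values kept their direction and their side of the threshold or, for CDK4 and CDKN1B, stayed uncalled; no called gene changed sign. Leaving out each library in turn gave 5 to 6 members higher and 2 lower, and 3372 to 3668 genes higher and 2619 to 3017 lower. A test against 1.5-fold (glmTreat) called 1 member higher (CCND3) and 0 lower, with 358 and 815 genes. There the 8 lists had 0 calls except KLF4 and FOSL1 (2 higher among D-type cyclin regulators) and CBX7 (1 lower).

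Upper-quartile scaling moved the median log2 fold change of all genes to -0.09, against -0.00378 in the main analysis, and gave 3058 genes higher and 4985 lower (38.0% of calls higher, against 52.3%), and total counts gave 3120 and 4879 (39.0%). Both called 4 members higher and 2 lower. Upper-quartile scaling gave 11 E2F targets lower, 0 pocket protein, E2F or DP genes higher and 6 lower, 3 other cyclins, CDKs and inhibitors higher, 4 D-type cyclin regulators lower, and 0 neighbours at 9p21 higher and 2 lower. DESeq2 called the same 7 members, 3403 genes higher and 2555 lower, with 3 other cyclins, CDKs and inhibitors higher, 1 pocket protein, E2F or DP gene, 1 turnover gene and 1 D-type cyclin regulator lower, and 0 neighbours at 9p21 higher or lower. The cause was not tested.

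Deviations from the group mean showed no pairing of same-numbered libraries (r = -0.00308). With 2 libraries a group these deviations mirror each other, so this value cannot exclude that same-numbered libraries were handled together. The replicate block gave 5 members higher and 2 lower, and 4147 genes higher and 3732 lower. Without robust shrinkage, an alternative added after the data were seen, 4068 genes were higher and 3658 lower, and the same 7 members were called. With the longest transcript as length, also added later, mean shares of the family level in anti-MN1 and control libraries were 49.99% and 59.03% for CCND1, 45.23% and 31.99% for CCND3, 29.5% and 24.0% for CDK6, and 74.5% and 65.9% for CDKN2A.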
